A study of Mus musculus with 6 samples.

Results

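The carriers described here are the membrane proteins that move amino acids, and some related small molecules, across the surface of a cell or the wall of its lysosomes. They were chosen by gene symbol from 6 solute carrier families, Slc1a, Slc3a, Slc6a, Slc7a, Slc36a and Slc38a, among the probe sets with a single annotated gene. The rule gave 61 of 19938 genes, read by 63 probe sets. Where a gene had more than 1 probe set, the one with the highest mean over all 6 arrays stood for it. The symbols Slc7a6os and Slc6a19os match the rule but name genes on the strand opposite to a carrier, so 59 members are carriers.

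Total RNA was measured on Affymetrix expression arrays in 2 macrophage subsets sorted from regenerating mouse muscle. The mice are labelled B6.129P2-Lyzstm1(cre)Ifo/J, a line with Cre recombinase at the myeloid lysozyme locus, and the labels name no second allele. Their tibialis anterior had been injured 2 days before with cardiotoxin, a muscle-killing venom protein. Cells positive for CD45, a surface protein of blood-lineage cells, were held on magnetic beads, and sorting by antibody gave a Ly6C- F4/80high and a Ly6C+ F4/80low subset, labelled as tissue macrophages. All cells share the genotype, the injury and the day, so the comparison is between subsets of the same muscle, with no uninjured group. Each of 3 mice gave 1 array of either subset, 6 in all. The labels give neither age nor sex.

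Amino acid carriers differ in their driving force and their place in the cell. Slc1a and Slc38a carriers use the sodium gradient, and several Slc36a carriers use protons. Slc6a carriers use sodium and chloride, and most Slc7a proteins exchange one amino acid for another. Several Slc7a light chains reach the surface only when bound to a heavy chain, Slc3a2 or Slc3a1. In macrophages these carriers feed glutathione synthesis with cystine, nitric oxide and polyamine synthesis with arginine, and growth signalling with glutamine and leucine. Carriers in the lysosome return amino acids from digested protein to the cytosol.

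Levels are log2 values made by the authors with RMA, and a difference is the Ly6C- F4/80high mean less the Ly6C+ F4/80low mean, with its standard error. A gene was called at a limma adjusted p under 0.05 over all genes. The background, 5.44, is the 95th percentile of the mean levels of olfactory and vomeronasal receptor genes. Levels of different genes are not compared, because probe sets differ in brightness. Precision is limited by the number of arrays.

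Both subsets expressed macrophage genes. All 9 measured macrophage and sorting genes were above background on every array. They include Csf1r, the receptor of a macrophage growth factor, and Adgre1, the gene of F4/80. In Ly6C- F4/80high cells 3 of the 9 were higher, Mertk the most at 1.57, and 4 lower, Ptprc the most at -0.64. The Ly6c1 and Ly6c2 genes share 2 probe sets, which differed by -3.39 (SE 0.14) and -3.18 (SE 0.15), following the sort. Markers of other cell types also differed. Of 7 endothelial markers 6 were lower in the Ly6C- F4/80high arrays, and their summed level lay between 9.20 and 9.33 on the Ly6C+ F4/80low arrays and between 8.51 and 8.58 on the others. Tek was under background on all 6 arrays, while Cdh5 differed by -1.51. Of 7 fibroblast markers 6 were lower, with sums of 8.85 to 9.21 and 8.50 to 8.63, and Lum was under background throughout. Of 9 dendritic cell markers 5 were lower, with sums of 9.13 to 9.19 and 8.65 to 8.70, and Clec9a, Itgae and Xcr1 were under background throughout. Of 13 neutrophil markers 3 were lower (S100a9, Ly6g and Cxcr2) and 1, Mmp8, was higher. The 13 had sums of 10.63 to 10.69 and 10.89 to 10.93. Mmp8 averaged 9.03 on the Ly6C+ F4/80low arrays and 9.76 on the others. Of the 13, 7 were under background throughout, Ly6g and Cxcr2 among them. Of 4 platelet markers 1, Pf4, was higher, with sums of 11.31 to 11.92 and 12.19 to 12.58. Among 11 muscle, 7 T cell, 6 B cell, 6 NK cell, 7 mast cell, 5 eosinophil and 2 erythroid markers 2, 1, 1, 1, 2, 2 and 0 were lower, and 1 B cell marker was higher. The part of these cells in the differences below was not tested. In sorted bulk samples a smaller share of cells that express a gene and less RNA per cell cannot be told apart.

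Called members lay in both directions. The cystine exchanger gene Slc7a11, the leucine exchanger gene Slc7a5, the arginine carrier gene Slc7a1 and the glutamine carrier genes Slc1a5, Slc38a1 and Slc38a2 were lower in Ly6C- F4/80high cells, by 0.50 to 1.08 on the log2 scale. Slc6a12, Slc7a6 and Slc7a6os were lower by less, and the other 6 lower calls (Slc1a7, Slc6a2, Slc6a17, Slc6a18, Slc7a3 and Slc7a9) were of genes near or under background. The creatine carrier gene Slc6a8, the lysosomal carrier genes Slc38a7, Slc38a9 and Slc36a1, and Slc38a6, Slc38a10, Slc36a2, Slc36a4 and Slc7a7 were higher, by 0.30 to 1.37, Slc38a9 on only 1 of its 2 probe sets. The shared heavy chain gene Slc3a2 stood at nearly the same level in both subsets. In all 9 members were called higher, 15 lower and 37 not called. Among all genes 33.8% were called, 19.5% higher and 14.3% lower, against 39.3%, 14.8% and 24.6% of the members. For 34 of 61 members no array of one subset lay within the range of the other, against 48.1% of all genes. Differences of at least 2-fold were called for 4 members, Slc7a11, Slc36a2, Slc38a6 and Slc6a8, against 2.92% of all genes. The median difference was -0.11 for the members and -0.06 for all genes.

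Many members were dim. On all 6 arrays 25 members were above background, on some arrays 15, and on none 21. Among the 33 members whose mean over all arrays exceeded the background 9 were called higher and 11 lower, where 29.3% and 15.7% of all genes of such a mean were, 45.0% together. Scaling moved the balance of the calls, with 10 higher and 11 lower members after cyclic loess normalization and 11 higher and 12 lower with a common median. It moved that of all genes as well. In the main fit 3887 of all genes were higher and 2861 lower. These counts were 3643 and 2339 after cyclic loess, and 4789 and 1737 with a common median. The number of lower members fell to 9 without mouse 1's Ly6C- F4/80high array, to 8 without mouse 1 and to 8 without mouse 3. All genes were called less often in those fits too, 26.0%, 22.7% and 20.1%. The calls of 13 members, including Slc7a11, Slc7a1, Slc7a5, Slc1a5, Slc38a1, Slc38a2, Slc6a8 and Slc38a6, were kept in 20 of 20 refits with other settings or with an array or mouse left out, and no called member changed sign in any of them.

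**Figure D1:**
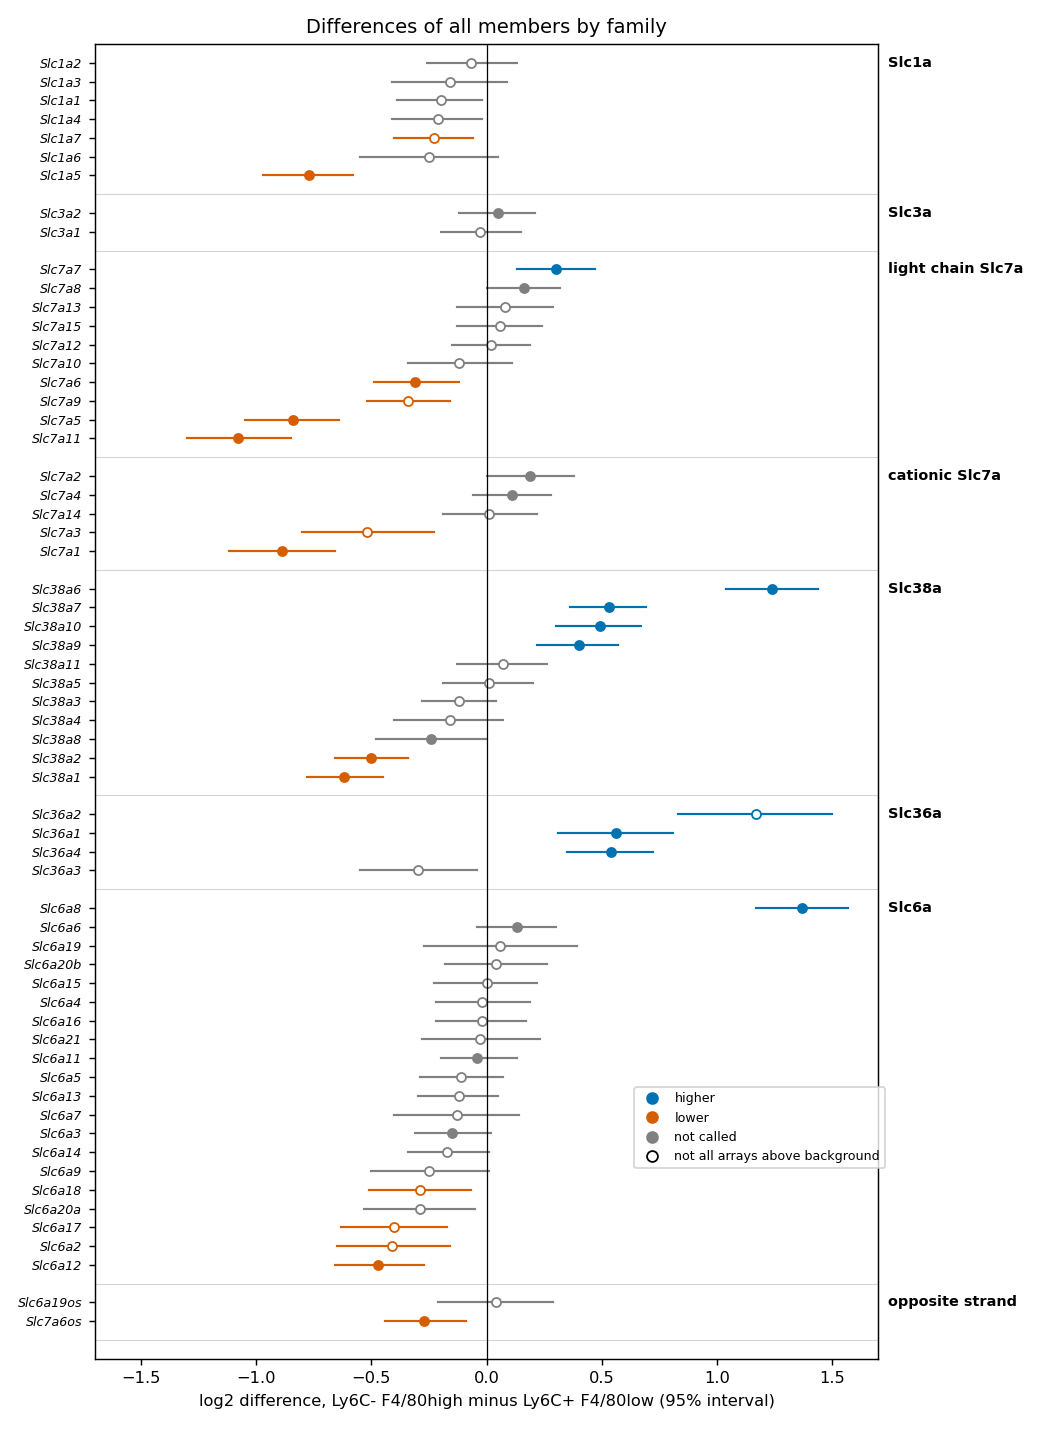
Log2 difference (x axis, Ly6C- F4/80high minus Ly6C+ F4/80low) of all 61 members by family, with 95% intervals, blue for called higher, orange for called lower and grey for not called; open points were not above background on all 6 arrays. Most filled points lie clear of zero on one side or the other. Open points lie mostly near or below it, with Slc36a2 highest at 1.17. The open points Slc7a3, Slc6a2, Slc6a17, Slc7a9, Slc6a18 and Slc1a7 were called lower, from -0.52 to -0.23.

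**Figure D2:**
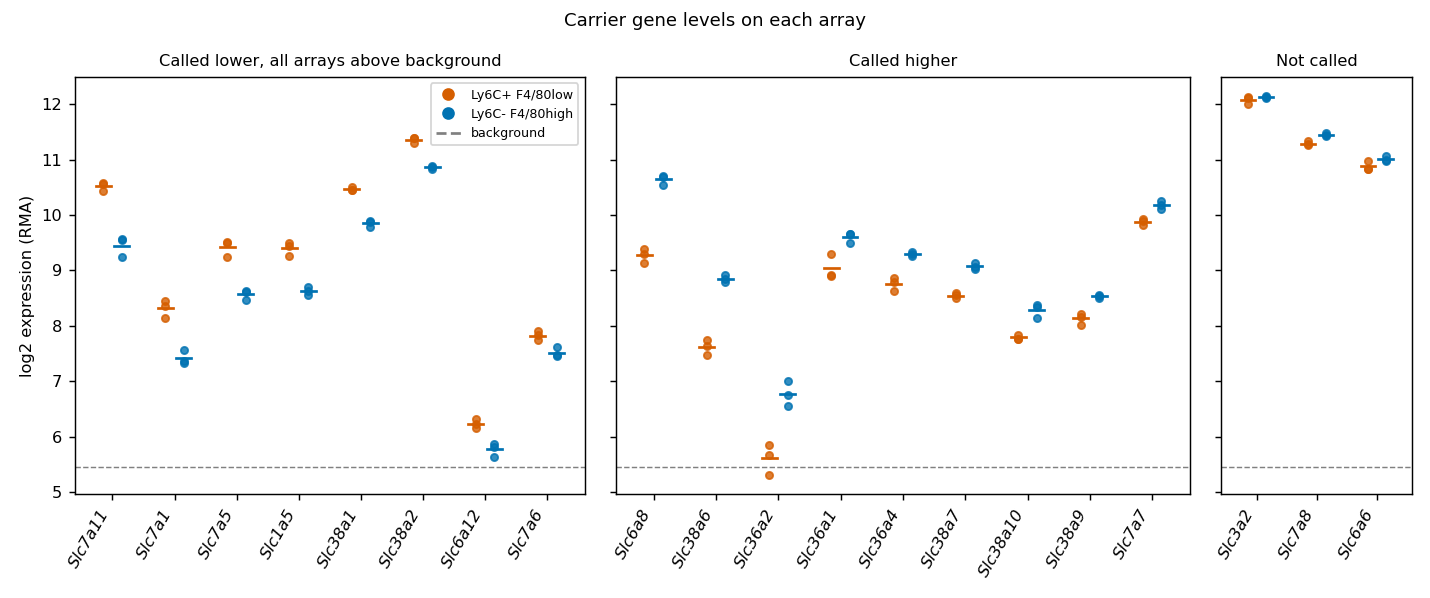
Log2 expression (y axis) on each array for carriers called lower and above background on all arrays, carriers called higher, and the uncalled Slc3a2, Slc7a8 and Slc6a6; orange points are Ly6C+ F4/80low arrays, blue points Ly6C- F4/80high arrays, short lines their means and the dashed line the background of 5.44. In the first pair of panels no orange point lies among the blue points of the same gene.

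Slc7a11 showed the largest decrease. It encodes xCT, the light chain that takes up cystine in exchange for glutamate and so supplies cysteine for glutathione. Its level was 10.43, 10.57 and 10.58 in the Ly6C+ F4/80low cells of mice 1, 2 and 3, and 9.24, 9.56 and 9.55 in the Ly6C- F4/80high cells. Every Ly6C- F4/80high array was below every Ly6C+ F4/80low array. The difference was -1.08 (SE 0.10, limma adjusted p = 3.53e-05), a 2.11-fold decrease, and it was -1.18, -1.02 and -1.03 within mice 1, 2 and 3. The stretch of 100 bases before its start site is shown because it holds matches to the core of the amino acid response element, a sequence bound by ATF4 with C/EBP partners when amino acids run short. It is taken from RefSeq at GRCm38.p6 chr3:50443614-50443713, minus strand, 5′ to 3′, with the matches in capitals.
Slc7a11: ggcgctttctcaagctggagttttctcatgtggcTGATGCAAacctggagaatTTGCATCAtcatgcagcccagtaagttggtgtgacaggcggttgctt
The matches to TGATGNAA, searched on both strands, begin at -66 and -47, counted with -1 as the last base before the start. In windows of 250 bases before a start this motif was found in 3.45% of 32851 promoters. Promoter entries were at hand for 45 of the 61 members, with 65 windows, of which 4 held the motif. Besides Slc7a11 these belonged to Slc7a7, which was higher, and Slc6a21, which was not called. The core of the antioxidant response element, TGACNNNGC on both strands, lay in 10.2% of all windows and in 8 of the 65, of 7 genes. These were Slc7a1, Slc7a6 and Slc38a2, called lower, and Slc6a9, Slc6a11, Slc6a13 and Slc6a16, not called. A match describes the letters of the window and no binding was measured.

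Slc7a5 encodes LAT1, which brings in leucine and other large neutral amino acids in exchange for glutamine. Its level was 9.49, 9.25 and 9.52 in the Ly6C+ F4/80low cells and 8.63, 8.47 and 8.61 in the Ly6C- F4/80high cells. The subsets did not overlap, and the difference was -0.84 (SE 0.09, limma adjusted p = 9.49e-05), 1.80-fold. Slc7a8 encodes LAT2, a light chain with an overlapping substrate range. It measured 11.26, 11.29 and 11.33 against 11.44, 11.42 and 11.48, a difference of 0.16 (SE 0.07, limma adjusted p = 0.117) with a 95% interval of 0.00 to 0.32. It was called with a common median (0.23, limma adjusted p = 0.0343) and with a trended robust prior (0.16, limma adjusted p = 0.0301). The LAT genes thus gave different values, one lower in each mouse and the other slightly higher in each mouse, and the difference between them was not tested.

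Slc7a7 and Slc7a6 encode the y+LAT light chains, which exchange cationic amino acids such as arginine for neutral ones. Slc7a7 is the form of macrophages and absorbing epithelia, and its loss causes lysinuric protein intolerance. It stood at 9.93, 9.83 and 9.89 in the Ly6C+ F4/80low cells and 10.19, 10.11 and 10.25 in the Ly6C- F4/80high cells, a difference of 0.30 (SE 0.08, limma adjusted p = 0.0128). Slc7a6 went the other way, with 7.90, 7.83 and 7.74 against 7.47, 7.62 and 7.46, a difference of -0.31 (SE 0.08, limma adjusted p = 0.0172). Neither gene's subsets overlapped. These small differences were sensitive to single arrays. The Slc7a7 call was lost without mouse 3's Ly6C- F4/80high array (0.27, limma adjusted p = 0.0531), without mouse 1 (0.32, limma adjusted p = 0.0558) and without mouse 3 (0.27, limma adjusted p = 0.112). That of Slc7a6 was lost without either array of mouse 1 (-0.27 and -0.28, limma adjusted p = 0.0579 and 0.0613), without mouse 3's Ly6C- F4/80high array (-0.28, limma adjusted p = 0.0652), without mouse 1 (-0.24, limma adjusted p = 0.143) and without mouse 3 (-0.32, limma adjusted p = 0.0724). Slc7a6os, the opposite-strand neighbour of Slc7a6, differed by -0.27 (SE 0.08, limma adjusted p = 0.0279), while a replicate block for the mouse gave -0.27 (limma adjusted p = 0.0515). Its call was also lost with a common median and without 4 of the 6 single arrays or any of the 3 mice, where the difference ran from -0.32 to -0.19.

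Slc3a2 encodes the heavy chain 4F2hc, or CD98, the partner of Slc7a5, Slc7a6, Slc7a7, Slc7a8 and Slc7a11. Its level was 12.01, 12.11 and 12.13 in the Ly6C+ F4/80low cells and 12.12, 12.15 and 12.13 in the Ly6C- F4/80high cells. The arrays overlapped, and the difference was 0.05 (SE 0.07, limma adjusted p = 0.631) with a 95% interval of -0.12 to 0.21. This interval leaves room for a change of about the size of the Slc7a8 difference, and lies outside the intervals of Slc7a11 (-1.30 to -0.85) and Slc7a5 (-1.05 to -0.64). Of the 10 light chain genes 4 were lower, 1 higher and 5 not called. That is 40% lower and 10% higher, against 14.3% and 19.5% of all genes. Slc7a9, the partner of the heavy chain Slc3a1 in kidney and gut, was called lower (limma adjusted p = 0.00832), but all its arrays, like those of Slc3a1, were under background. Its fitted difference of -0.34 (SE 0.08) thus lies between unmeasured levels, and no fold can be given. That call was lost after cyclic loess normalization (-0.22, limma adjusted p = 0.0596).

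Among the cationic amino acid carriers Slc7a1 was lower. It encodes CAT1, a widely expressed importer of arginine, lysine and ornithine. Its level was 8.14, 8.35 and 8.45 in the Ly6C+ F4/80low cells and 7.32, 7.37 and 7.57 in the Ly6C- F4/80high cells, with no overlap. The difference was -0.89 (SE 0.10, limma adjusted p = 0.000122), 1.86-fold. Slc7a2 encodes CAT2, the arginine importer known to be induced in activated macrophages. It stood at 5.64, 5.76 and 5.61 against 5.92, 5.92 and 5.74, close to background, a difference of 0.19 (SE 0.08, limma adjusted p = 0.111) with a 95% interval of 0.00 to 0.38. It was called after quantile normalization (0.26, limma adjusted p = 0.0319), after cyclic loess (0.27, limma adjusted p = 0.0333) and with a common median (0.26, limma adjusted p = 0.0300). Slc7a3, a related carrier of the brain, was called lower (limma adjusted p = 0.0120) with every array under background, so that its fitted difference of -0.52 (SE 0.13) gives no fold. Its call was lost without mouse 1 (-0.32, limma adjusted p = 0.123) and without mouse 3 (-0.54, limma adjusted p = 0.0614). The remaining members of this family, Slc7a4 and Slc7a14, were not called.

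In the Slc1a family only Slc1a5 was above background on every array. Slc1a5 encodes ASCT2, which exchanges glutamine with other small neutral amino acids. Its level was 9.26, 9.45 and 9.50 in the Ly6C+ F4/80low cells and 8.70, 8.63 and 8.55 in the Ly6C- F4/80high cells, with no overlap. The difference was -0.77 (SE 0.09, limma adjusted p = 0.000110), 1.71-fold, and -0.56, -0.81 and -0.95 in mice 1, 2 and 3. Slc1a4, a carrier of alanine, serine and cysteine, stood between 5.70 and 5.80 against 5.39 to 5.67, a difference of -0.21 (SE 0.09, limma adjusted p = 0.0883). It was called without mouse 2's Ly6C- F4/80high array (-0.28, limma adjusted p = 0.0353). Slc1a3, a glutamate carrier best known from astrocytes, was above background on 1 of 6 arrays and differed by -0.16 (SE 0.11, limma adjusted p = 0.283). Slc1a7, a glutamate carrier of the retina, had levels of 5.67, 5.54 and 5.57 in the Ly6C+ F4/80low cells and was under background in the others, a decrease of at least 1.11-fold (limma adjusted p = 0.0397). Its call was lost with a replicate block for the mouse (-0.23, limma adjusted p = 0.0752), under all 3 other scalings, with a trended robust prior, and without 5 of the 6 single arrays or any of the 3 mice, with differences from -0.28 to -0.13.

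The Slc38a carriers were divided. Slc38a1 and Slc38a2 encode SNAT1 and SNAT2, sodium-coupled importers of glutamine and alanine at the cell surface, and SNAT2 is induced when amino acids are scarce. Slc38a1 measured 10.45, 10.51 and 10.46 in the Ly6C+ F4/80low cells and 9.89, 9.88 and 9.79 in the Ly6C- F4/80high cells. The difference was -0.62 (SE 0.07, limma adjusted p = 0.000149), with no overlap. A second, dimmer Slc38a1 probe set differed by -0.48 (SE 0.15, limma adjusted p = 0.0676 over all probe sets), where the first had 0.00186. Slc38a2 measured 11.30, 11.39 and 11.40 against 10.86, 10.84 and 10.89, a difference of -0.50 (SE 0.07, limma adjusted p = 0.000534). Both genes were lower in each mouse, and they are next to each other among the protein-coding genes of the RefSeq annotation of GRCm38.p6. Their neighbour Slc38a4 had no array above background.

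Of the other Slc38a genes 4 were higher in Ly6C- F4/80high cells. Of all 11 Slc38a genes 36.4% were higher and 18.2% lower, against 19.5% and 14.3% of all genes. Slc38a6, whose substrates are less well settled, had the largest difference. Its level was 7.63, 7.75 and 7.47 in the Ly6C+ F4/80low cells and 8.85, 8.91 and 8.80 in the Ly6C- F4/80high cells. The gap between the subsets was wider than the spread in either, and the difference was 1.24 (SE 0.09, limma adjusted p = 6.05e-06), 2.36-fold. Slc38a7 encodes SNAT7, which exports glutamine and asparagine from the lysosome. It stood at 8.55, 8.50 and 8.59 against 9.03, 9.06 and 9.13, a difference of 0.53 (SE 0.07, limma adjusted p = 0.000428). Slc38a10, described as a carrier of glutamine and glutamate, measured 7.77, 7.84 and 7.77 against 8.37, 8.34 and 8.14, a difference of 0.49 (SE 0.08, limma adjusted p = 0.00144). None of these 3 genes overlapped between subsets.

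Slc38a9 encodes the lysosomal arginine sensor that signals to mTORC1. On its brighter probe set it stood at 8.16, 8.22 and 8.02 in the Ly6C+ F4/80low cells and 8.54, 8.55 and 8.50 in the Ly6C- F4/80high cells, a difference of 0.40 (SE 0.08, limma adjusted p = 0.00360). Its other probe set differed by 0.03 (SE 0.12, limma adjusted p = 0.876 over all probe sets), with means of 6.70 and 6.73. The probe sets disagree, and with their mean the gene was no longer called (0.21, limma adjusted p = 0.0770).

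Carriers of the Slc36a family were higher in 3 of 4 cases, or 75%, where 19.5% of all genes were. Slc36a1 encodes PAT1, which exports small neutral amino acids from lysosomes and takes part in mTORC1 activation. It measured 9.30, 8.90 and 8.92 in the Ly6C+ F4/80low cells and 9.65, 9.50 and 9.65 in the Ly6C- F4/80high cells. The array of mouse 1 was the highest of the first subset yet still below all of the second, and the difference was 0.56 (SE 0.11, limma adjusted p = 0.00351). The call was lost without mouse 3 (0.48, limma adjusted p = 0.0554). Slc36a4, a high-affinity carrier of proline and tryptophan, stood at 8.63, 8.79 and 8.87 against 9.26, 9.30 and 9.33, a difference of 0.54 (SE 0.08, limma adjusted p = 0.000786). Slc36a2, a carrier of glycine and proline known from kidney, stood at 5.67, 5.30 and 5.85 against 6.75, 7.01 and 6.56. With 2 of 3 Ly6C+ F4/80low arrays above background, its difference was 1.17 (SE 0.15, limma adjusted p = 0.000240), 2.25-fold, and varied from 0.71 in mouse 3 to 1.71 in mouse 2. Slc36a2 lies between Slc36a1 and Slc36a3 in the RefSeq gene order, and Slc36a3 was not called.

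The stretches before the start sites of Slc36a1 and Slc38a7, both higher and both carriers of the lysosome, are shown because each holds the E-box CACGTG, the core of the element read by TFEB and related factors in lysosomal genes and by MYC in others. They come from RefSeq at GRCm38.p6 chr11:55204240-55204339, plus strand, and chr8:95853492-95853591, minus strand, 5′ to 3′, with the E-box in capitals.
Slc36a1: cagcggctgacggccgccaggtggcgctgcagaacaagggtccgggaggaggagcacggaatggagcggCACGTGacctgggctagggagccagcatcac
Slc38a7: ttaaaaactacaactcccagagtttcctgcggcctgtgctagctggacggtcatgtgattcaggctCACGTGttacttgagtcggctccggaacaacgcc
The motif reads the same on both strands and begins at -31 in Slc36a1 and at -34 in Slc38a7. It was found in 6.02% of all windows and in 8 of the 65 windows of members. The other 6 genes were Slc1a7, called lower, and Slc1a6, Slc38a5, Slc6a3, Slc6a16 and Slc7a14, not called. Slc38a9, Slc38a6, Slc38a10, Slc36a4 and Slc7a7, also higher, had no CACGTG in their windows. This says only that these letters are not in the 250 bases searched. No match is given for the higher genes Slc36a2 and Slc6a8. Entries were at hand for only 45 of the members, so this is not read as an absence of the motif.

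Slc6a8 had the largest difference of all members. It encodes the creatine carrier, which takes up creatine for the phosphocreatine energy buffer. Its level was 9.13, 9.30 and 9.39 in the Ly6C+ F4/80low cells and 10.55, 10.68 and 10.71 in the Ly6C- F4/80high cells. The subsets were more than a log2 unit apart in each mouse (1.42, 1.38 and 1.31), and the difference was 1.37 (SE 0.09, limma adjusted p = 3.57e-06), 2.59-fold. Slc6a6, the taurine carrier gene, stood at 10.83, 10.84 and 10.98 against 10.97 to 11.06. These overlapped, and the difference was 0.13 (SE 0.08, limma adjusted p = 0.212) with a 95% interval of -0.04 to 0.30. Slc6a12, a carrier of betaine and GABA that responds to osmotic stress, was lower, with 6.15, 6.32 and 6.23 against 5.63, 5.86 and 5.81. The difference was -0.47 (SE 0.09, limma adjusted p = 0.00260), and its neighbour Slc6a13 was under background.

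Of the 20 Slc6a genes 1 was higher, 4 lower and 15 not called, and 5 were above background on all arrays. The lower calls besides Slc6a12 were of dim genes. Slc6a17, a vesicular carrier of neurons, differed by -0.40 (SE 0.10, limma adjusted p = 0.0136), with 1 of 3 Ly6C- F4/80high arrays above background. Slc6a2, the noradrenaline carrier gene, had 1 of 6 arrays above background (fitted difference -0.41, limma adjusted p = 0.0165), and Slc6a18, a kidney carrier, had none (fitted difference -0.29, limma adjusted p = 0.0439). No fold can be given for either. The Slc6a17 call was lost without mouse 1's Ly6C- F4/80high array (-0.33) or mouse 3 (-0.35), and without mouse 1 (-0.30) or mouse 3 (-0.38), with limma adjusted p-values of 0.0560, 0.0565, 0.134 and 0.0937. The Slc6a2 call was lost after quantile normalization and cyclic loess, without either array of mouse 1, and without mouse 1 or mouse 3, with differences of -0.45 to -0.24. That of Slc6a18 was lost under all 3 other scalings, with a trended robust prior, without each single array but the Ly6C- F4/80high array of mouse 2, and without mouse 1 or mouse 3, with differences of -0.32 to -0.16.

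The other 31 uncalled members, apart from Slc3a2, Slc7a8, Slc7a2, Slc1a4, Slc1a3 and Slc6a6, differed by -0.30 to 0.11. They include the carriers of serotonin, dopamine, glycine and GABA (Slc6a4, Slc6a3, Slc6a5, Slc6a9, Slc6a11 and Slc6a13), the brain glutamate carrier Slc1a2, and the kidney and gut carriers Slc6a19, Slc6a20a, Slc7a13 and Slc3a1. Of the 31, 18 had no array above background and 4 were above it on all arrays, so a difference in most of them could not be measured.

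**Figure D3:**
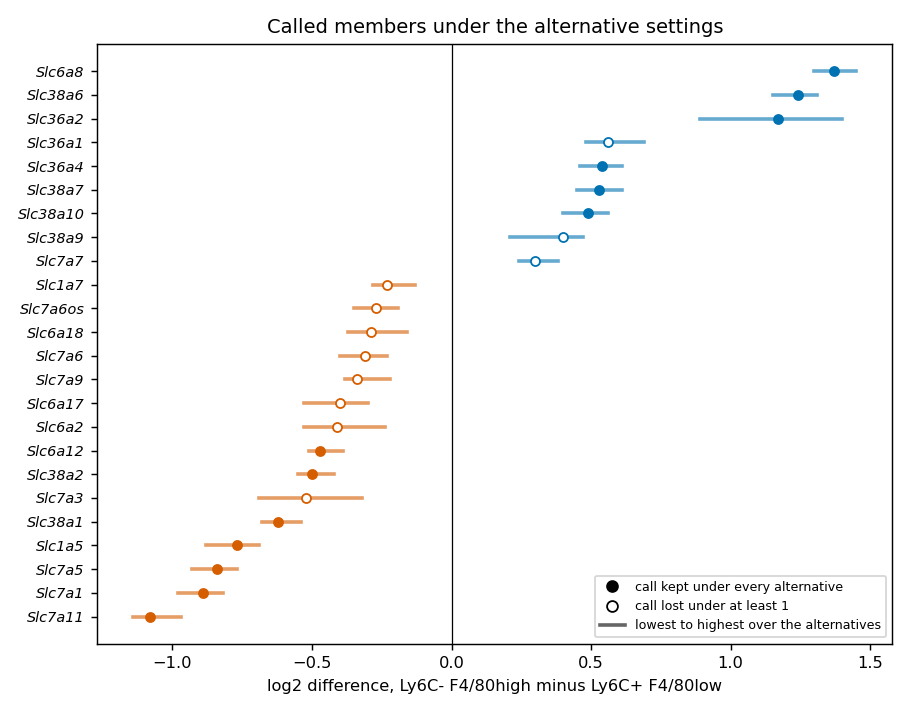
Log2 difference (x axis) of the 24 called members, with the line from the lowest to the highest value over 20 refits and open points for calls lost in at least 1 of them. The 13 filled points keep their call throughout, Slc6a8 between 1.30 and 1.45 and Slc7a11 between -1.14 and -0.97, and no line crosses zero.

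Amino acid carriers outside the 6 families also moved both ways, with 7 of 23 higher and 5 lower (median -0.05). That is 30.4% and 21.7%, against 19.5% and 14.3% of all genes. Of all genes with a mean above background 29.3% were higher and 15.7% lower, near the shares of this list. The lower calls numbered 3 without any 1 of the arrays of mouse 1 or mouse 3, and 1 without mouse 1 or without mouse 3. Slc66a1, which exports cationic amino acids from lysosomes, was higher by 0.69 (SE 0.08, limma adjusted p = 0.000121). Slc17a5, a lysosomal carrier of sialic acid and acidic amino acids named after its value was seen, was higher by 0.61 (SE 0.09). Slc25a44, a mitochondrial carrier of branched-chain amino acids, was higher by 0.70 (SE 0.08). Among those lower, the mitochondrial ornithine carrier gene Slc25a2 differed by -0.72 (SE 0.16) and the mitochondrial glutamate carrier gene Slc25a22 by -0.39 (SE 0.08). The first lost its call without mouse 3 (-0.61, limma adjusted p = 0.0839) and the second without mouse 1 (-0.30, limma adjusted p = 0.0620).

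Genes of the amino acid response, which is driven by the factor ATF4 and is known to include Slc7a11, Slc7a5, Slc7a1 and Slc38a2 among its targets, were lower in 10 of 26 cases and higher in 5 (median -0.12). That is 38.5% lower and 19.2% higher, against 14.3% and 19.5% of all genes, and 15.7% and 29.3% of those with a mean above background. The higher calls numbered 3 after quantile or cyclic loess normalization, and 3 without either array of mouse 1 or without that mouse. Nupr1, a stress-induced chromatin protein, had a mean level of 7.90 ± 0.14 (SD, n = 3) on Ly6C- F4/80high arrays and 8.90 ± 0.06 on the others (limma adjusted p = 2.58e-05), and Mthfd2, of mitochondrial folate metabolism, differed by -0.74 (SE 0.10). Asns, the asparagine synthetase gene, measured 7.15, 7.52 and 7.56 in the Ly6C+ F4/80low cells and 6.50, 6.69 and 6.91 in the Ly6C- F4/80high cells, a difference of -0.71 (SE 0.13, limma adjusted p = 0.00235). Atf4 itself differed by -0.12 (SE 0.09, limma adjusted p = 0.321). On the higher side were Shmt2, the mitochondrial serine hydroxymethyltransferase gene, at 0.80 (SE 0.12) and Cebpg, a partner of ATF4, at 0.63 (SE 0.07). The list is therefore not uniform in direction.

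The list of cystine, glutathione and other genes tied to the oxidant-responsive factor NRF2 had 6 of 20 genes lower and 4 higher (median -0.13). That is 30% and 20%, against 14.3% and 19.5% of all genes, and 15.7% and 29.3% of those with a mean above background. The lower genes were Gsr, Cth, Gclc, the catalytic subunit of glutathione synthesis, Nfe2l2, which encodes NRF2, Bach1, a repressor of its targets, and Cd44, a surface receptor. The higher ones were Slc48a1, Gpx4, Gpx1 and Prdx1, and they numbered 2 without mouse 2's Ly6C+ F4/80low array, either array of mouse 3, or mouse 3. Gsr, which reduces oxidised glutathione, differed by -1.19 (SE 0.09, limma adjusted p = 1.10e-05). Cth, which makes cysteine from cystathionine, had 2 of 6 arrays above background, both Ly6C+ F4/80low, a decrease of at least 1.06-fold (limma adjusted p = 0.0181). That call was lost without either array of mouse 1 (-0.38 and -0.32), without mouse 1 (-0.25) and without mouse 3 (-0.49). Gclm, the regulatory subunit of glutathione synthesis, had a difference of 0.31 (SE 0.11, limma adjusted p = 0.0565), called in 9 of 20 refits, among them those without either array of mouse 1 (0.39 and 0.39) and without mouse 1 (0.47). Gpx4, which uses glutathione to repair lipid peroxides, was higher by 0.88 (SE 0.07, limma adjusted p = 1.48e-05), and the heme carrier gene Slc48a1 by 1.22 (SE 0.08).

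Enzymes of arginine and polyamine metabolism were lower in 5 of 16 cases and higher in 3 (median -0.15). That is 31.2% and 18.8%, against 14.3% and 19.5% of all genes, and 15.7% and 29.3% of those with a mean above background. The balance of the list turned with a common median, which gave 2 lower and 5 higher. The lower calls numbered 3 without mouse 1's Ly6C- F4/80high array, either array of mouse 3, or mouse 2, and fell to 2 without mouse 1 and 1 without mouse 3. Gatm, which makes the creatine precursor guanidinoacetate from arginine and glycine, measured 7.93, 7.99 and 7.39 in the Ly6C+ F4/80low cells and 10.22, 10.19 and 10.05 in the Ly6C- F4/80high cells. The difference was 2.39 (SE 0.14, limma adjusted p = 2.30e-06), 5.23-fold. Gamt, which completes creatine synthesis, was higher by 1.10 (SE 0.10, limma adjusted p = 3.02e-05), and Ckb, the cytosolic creatine kinase gene, by 0.51 (SE 0.08, limma adjusted p = 0.000624). Both were named after their values were seen. The other measured creatine kinase genes were not called, with 0.06 (SE 0.08) for Ckm, -0.24 (SE 0.09) for Ckmt1 and 0.00 (SE 0.08) for Ckmt2. Ckmt1 was above background on 2 Ly6C+ F4/80low arrays alone and Ckmt2 on no array, so a difference in them could hardly be measured. The synthesis genes Gatm and Gamt were thus higher, as was the carrier gene Slc6a8, and 1 of 4 kinase genes.

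Arg1, the arginase that competes for arginine with nitric oxide synthase, measured 7.32, 8.32 and 8.73 in the Ly6C+ F4/80low cells and 9.32, 9.42 and 9.73 in the Ly6C- F4/80high cells. The first subset was widely spread, and the difference was 1.36 (SE 0.29, limma adjusted p = 0.00462). It was not called with a trended robust prior (1.36, limma adjusted p = 0.0507). Nos2, the inducible nitric oxide synthase gene, was near background and differed by -0.35 (SE 0.11, limma adjusted p = 0.0273). Its call was lost in 9 of 19 refits, among them those without mouse 1's Ly6C- F4/80high array (-0.28) or mouse 3 (-0.38), without mouse 3's Ly6C+ F4/80low array (-0.25), and without mouse 1 (-0.36), mouse 2 (-0.42) or mouse 3 (-0.28). Nos3 differed by -0.45 (SE 0.10), a call lost without mouse 1 (-0.33) and without mouse 3 (-0.43). Smox, which oxidises spermine, had the largest decrease of this list at -1.43 (SE 0.10, limma adjusted p = 6.66e-06).

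Enzymes of glutamine and glutamate were higher in 5 of 18 cases and lower in 3 (median -0.02). That is 27.8% and 16.7%, against 19.5% and 14.3% of all genes. Of all genes with a mean above background 29.3% were higher and 15.7% lower, near the shares of this list. The balance of the list turned after cyclic loess normalization, which gave 3 higher and 5 lower. The higher calls numbered 3 without mouse 2's Ly6C+ F4/80low array, mouse 3's Ly6C- F4/80high array, mouse 1 or mouse 3, and the lower calls 5 without mouse 2's Ly6C- F4/80high array and 1 without mouse 3. Glul, the glutamine synthetase gene, was higher by 0.85 (SE 0.09, limma adjusted p = 5.67e-05), next to the lower glutamine carrier genes Slc1a5, Slc38a1 and Slc38a2. Gpt2, which makes alanine and takes glutamate as donor, was higher by 0.97 (SE 0.11). Got1, the cytosolic aspartate aminotransferase gene, was lower at -0.49 (SE 0.12), a call lost without mouse 3 (-0.43, limma adjusted p = 0.0789), and Asns, which is also in this list, was lower as given above.

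Genes of amino acid sensing by mTORC1 were higher in 14 of 34 cases and lower in 3 (median 0.14). That is 41.2% and 8.82%, against 19.5% and 14.3% of all genes, and 29.3% and 15.7% of those with a mean above background. Without mouse 2 the list had 9 higher and 1 lower, and without mouse 3 there was 1 lower call. Sesn1, a leucine-binding inhibitor of the pathway, was higher by 0.97 (SE 0.15) and Tmem175, a lysosomal potassium and proton channel, by 0.86 (SE 0.08). Mtor was higher by 0.37 (SE 0.08, limma adjusted p = 0.00440), a call lost without mouse 1 (0.32, limma adjusted p = 0.0501). Castor1, an arginine sensor in the cytosol, differed by -0.78 (SE 0.10, limma adjusted p = 0.000234). The lysosomal arginine sensor gene Slc38a9 had 0.40 on its brighter probe set and 0.03 on the other. Castor2 of the same list, named after its value was seen, was higher by 0.50 (SE 0.10, limma adjusted p = 0.00377). Sesn2, which is also an ATF4 target, differed by -0.49 (SE 0.11), a call lost without mouse 2 (-0.43) and without mouse 3 (-0.44).

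**Figure D4:**
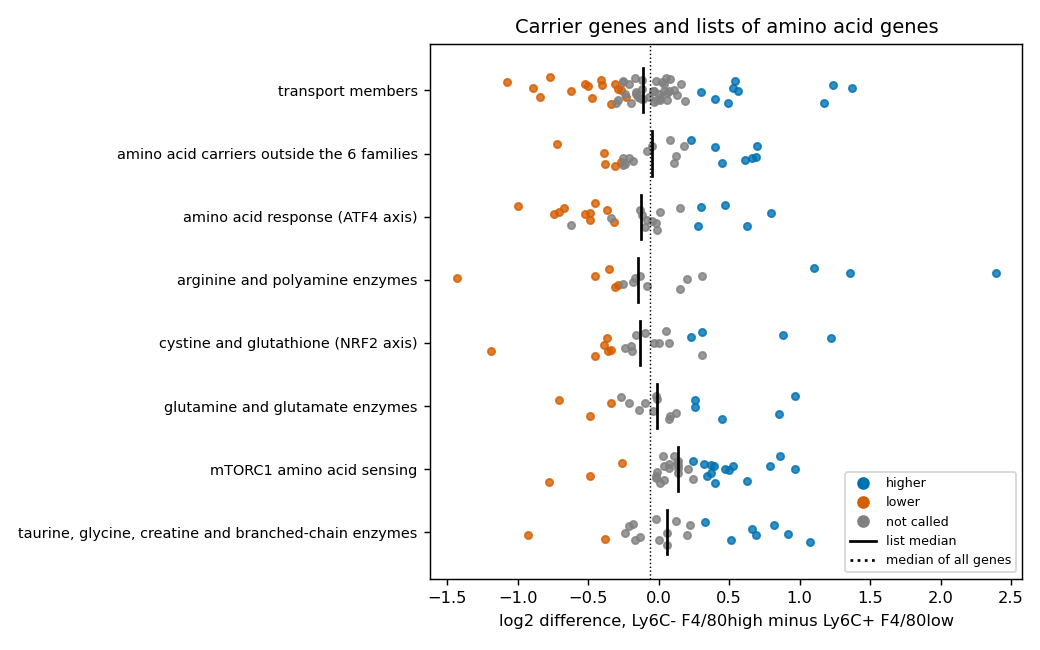
Log2 difference (x axis) of the 61 members and of the measured genes of 7 lists of amino acid genes, blue for called higher, orange for called lower and grey for not called; black bars are list medians and the dotted line the median of all genes, -0.06. The medians lie between -0.15 and 0.14, with called genes on both sides of zero in every list.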

How the data were processed

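The deposited values are log2 expression values of 35556 probe sets on 6 arrays, which the authors made with RMA, per the submitters' processing notes. RMA corrects background, equalises the distributions of the arrays and summarises the probes of a set, and it shrinks differences of dim genes. The sources used here do not give its software or settings, and the scale was read from the values. Per the labels' protocols 150 ng of RNA was amplified and labelled per array. Of the probe sets 21789 had 1 gene symbol in the array annotation, 1621 several and 12146 none listed, and only the first were used. Current symbols and promoter sequences came from RefSeq tables of GRCm38.p6, where all 61 members were matched by gene identifier.

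The subsets were compared with limma 3.58.1 under R 4.3.3, by lmFit and eBayes, two-sided, with no filter and with Benjamini-Hochberg adjustment over 19938 genes. A list is described by counts and median, with no test of its own. Where all arrays of a subset were under background, a fold is a bound, computed with 5.44 in their place. Summed marker levels are log2 of summed linear values. The script was tested on simulated data with 200 changed genes. It called 55% of log2 differences of 0.5 and 95% of those of 1, so an uncalled gene can still differ. The real comparison called 6748 genes, and the adjusted p depends on how many genes differ. The simulated shares therefore do not carry over to the real comparison.

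The members and lists were chosen with earlier results of these data known. All called members are named with values, as are 18 fixed ones, and from each list the 2 largest called differences in each direction and a few fixed genes. Mouse numbers pair the arrays, since each animal gave both subsets per the labels. Deviations from the subset means correlated at 0.03, -0.08 and 0.09 within mice 1, 2 and 3, and the mouse as a block was an alternative, since a paired test is stated nowhere. The rest were a random mouse effect, 3 scalings, 3 filters on level, averaged probe sets, array weights, a trended robust prior, and fits that drop an array or a mouse.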

Additional observations from a re-analysis of the deposited data

How the results depend on the processing

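Over 20 refits 13 of 24 called members kept their call, 11 lost it in at least 1, and none changed sign. Of the 37 uncalled members 8 (Slc1a4, Slc36a3, Slc38a8, Slc6a20a, Slc6a7, Slc6a9, Slc7a2 and Slc7a8) were called in at least 1 refit and 18 changed sign, all without a call, among them Slc3a2 after quantile normalization (-0.01). The number called lower was 15, and 9 without the lowest 50% of genes, which tests 22 of the 61 members. In that fit 9 of the 22 were higher, and 57.4% of all genes tested were called, 3791 higher and 1929 lower. Leaving out an array or a mouse gave 8 to 18 lower, 7 to 9 higher and 15 to 27 called members. The share of all genes called ran from 20.1% to 34.5% in those fits. With a 2-fold threshold added, 4 members were called. The replicate block gave 22 called members, ending the calls of Slc1a7 and Slc7a6os, and changed no other member's call. With it 30.9% of all genes were called. All other settings kept these member counts within 1.5 times. The counts of the 7 lists of other amino acid genes moved more, as given beside them. With the lists' genes filtered on level, arginine and polyamine calls were 5 higher under each of 3 filters and 2 lower without the lowest 50% of genes, and glutamine and glutamate calls were 5 lower without the lowest 25% of genes, without genes under background in both subsets, with a trended robust prior and with array weights. Glutamine and glutamate calls were 3 higher after quantile normalization. Signal over background limits what can be measured for the 21 members with no array above it.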

Other observations

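The list of taurine, glycine, creatine and branched-chain enzymes had 7 of 21 genes higher in the Ly6C- F4/80high cells and 2 lower (median 0.06). That is 33.3% and 9.52%, against 19.5% and 14.3% of all genes, and 29.3% and 15.7% of those with a mean above background. The lower calls numbered 1 after quantile or cyclic loess normalization, without the lowest 50% of genes, without either array of mouse 1, without mouse 3's Ly6C- F4/80high array, and without mouse 1. Ivd, which oxidises the leucine product isovaleryl-CoA, averaged 7.84 ± 0.10 (SD, n = 3) in Ly6C- F4/80high and 6.77 ± 0.17 in Ly6C+ F4/80low cells, a difference of 1.07 (SE 0.10, limma adjusted p = 3.14e-05). Bckdk, the kinase that restrains the branched-chain keto acid dehydrogenase, was higher by 0.92 (SE 0.09), and Bckdhb and Dbt, subunits of that enzyme named after their values were seen, by 0.82 (SE 0.10) and 0.69 (SE 0.10). Other genes of branched-chain breakdown were not called, with -0.17 (SE 0.10) for Bcat1, 0.22 (SE 0.10) for Bcat2, 0.12 (SE 0.10) for Bckdha and 0.20 (SE 0.09) for Dld. Bcat1 was above background on 1 Ly6C+ F4/80low array alone. Gcsh, of the glycine cleavage system, differed by -0.93 (SE 0.16, limma adjusted p = 0.00151). Fmo1, which can make taurine from hypotaurine, differed by -0.38 (SE 0.10, limma adjusted p = 0.0183), and its call was lost in 8 of 19 refits, with differences of -0.38 to -0.26, including those without either array of mouse 1 (-0.29 and -0.35), without mouse 2's Ly6C+ F4/80low array (-0.36), without mouse 3's Ly6C- F4/80high array (-0.38), and without mouse 1 (-0.26) or mouse 2 (-0.38).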
